A study of Mus musculus with 12 samples.

Results

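Platelet-derived growth factors (PDGFs) signal from one cell to another in the lung. The dimeric ligands made from Pdgfa, Pdgfb, Pdgfc and Pdgfd bind the receptor tyrosine kinases encoded by Pdgfra and Pdgfrb, and a bound receptor recruits adaptors, lipid kinases and phospholipases that drive the growth, migration and survival of mesenchymal cells. PDGF-A acting on Pdgfra-bearing fibroblasts is known for its part in forming alveoli, PDGF-B from endothelium is known for holding pericytes on capillaries, and PDGF-C and PDGF-D are secreted in a latent form that proteases must cut. The 6 genes, 4 of ligands and 2 of receptors, were taken by symbol from the 31053 genes listed in the matrices, and each symbol matched 1 row.

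The genes were followed in single-nucleus RNA sequencing of frozen lungs from 12 C57BL/6J mice, each mouse giving 1 library, in 4 groups of 3. The mice were 7 weeks old when the airway was treated. The airway received either PBS or bleomycin at 1.2 U/kg, which damages the epithelium and is followed by scarring. From day 5 the mice were gavaged once daily for 5 days with NVP-BHG712, an inhibitor of the EphB4 receptor tyrosine kinase, or with its vehicle, and all lungs were taken on day 14. The groups are called PBS_vehicle, PBS_NVP, Bleo_vehicle and Bleo_NVP, and none carries a transgene in the labels. The sources say only that each library is 1 mouse. The p-values measure the spread between these libraries, in which mouse, run or batch, and depth are not separated.

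The matrices held 49163 barcodes and 184940649 UMIs (unique molecular identifiers, each a captured RNA molecule), from 3556084 to 61947690 UMIs per library, and 44611 nuclei were used, from 1168 to 11867 per library. Nuclei were assigned to 20 cell classes from marker genes that held none of the 6 genes, and the names are to be read as fibroblast-like, pericyte-like and so on. In 14 of the 20 classes every marker was over 2-fold above its mean in the other classes, and in the rest 1 or 2 markers were not (Dcn in fibroblasts and Kcnj8 in pericytes, for instance). Libraries shared at most 0.845% of their barcodes. Median UMIs per barcode before filtering ran from 925 in Bleo_vehicle replicate 1 to 5408 in PBS_vehicle replicate 1. Nuclei of Bleo_vehicle had median mitochondrial shares of 2.56%, 1.32% and 0.668%, against 0.0496% or less in every other library. The labels give run number 4 to the Bleo_NVP libraries, batch numbers 6, 6 and 7 to the Bleo_vehicle libraries and run numbers 1, 2 and 3 to PBS libraries, so the effects of group and of batch cannot be told apart wherever a bleomycin group is compared. Levels are given in CPM, UMIs of a gene per 1000000 UMIs of its class and library after TMM scaling, or in unscaled CPM, the same without TMM, and are compared within a gene across classes, since the genes differ in length. On GRCm38 (mm10) Pdgfd spans 210.3 kb at chr9:6168584-6378850 and Pdgfc 177.6 kb at chr3:81036416-81214040. Pdgfra spans 45.9 kb at chr5:75152292-75198215, Pdgfa 21.4 kb at chr5:138976014-138997370 and Pdgfb 19.1 kb at chr15:79995874-80014977, and Pdgfrb spans 39.9 kb. The only annotated genes overlapping a member on its own strand were microRNA genes, Mir7213 in Pdgfb and Mir7025 in Pdgfra.

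The 6 genes divided the lung between them. Pdgfa was highest in epithelium, Pdgfb and Pdgfd in endothelium and Pdgfc in macrophages, while Pdgfra was highest in fibroblasts and Pdgfrb in pericytes. The levels below describe where the RNA lay and were not tested. Neighbouring classes are said to differ beyond their spread where their mean log2 difference within libraries exceeded the SD of that difference over the libraries that held at least 20 nuclei of both.

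**Figure D1:**
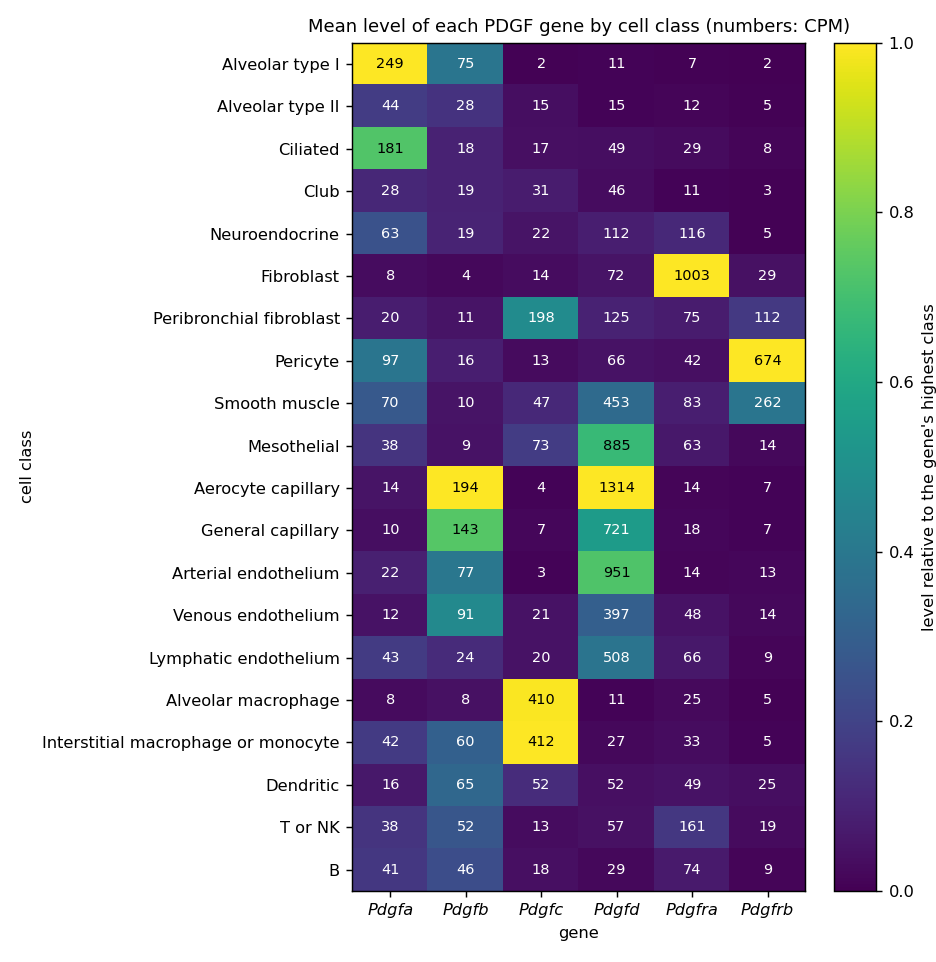
Mean CPM of each PDGF gene (columns) in 20 cell classes (rows), over libraries with at least 20 nuclei of the class. Colour is the level relative to the gene's own highest class, so that colours compare within a column, with the highest class at 249 CPM for Pdgfa (alveolar type I cells), 194 CPM for Pdgfb and 1314.5 CPM for Pdgfd (both aerocytes), 412 CPM for Pdgfc (interstitial macrophages or monocytes, beside 410 CPM in alveolar macrophages), 1003 CPM for Pdgfra (fibroblasts) and 674 CPM for Pdgfrb (pericytes).

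Among the ligands, Pdgfa stood at 249 ± 56.1 CPM (SD, n = 12 libraries) in alveolar type I cells, the thin cells of gas exchange. Ciliated cells followed at 181 ± 68.1 CPM (n = 12) and pericytes at 97.1 ± 39.5 CPM (n = 8), each step beyond the spread. Fibroblasts held 8.02 CPM. Of 14184 Pdgfa UMIs, 74.0% lay in alveolar type I nuclei, from 59.3% to 87.8% by library. The genes whose pattern over the 20 classes was most like that of Pdgfa were Gipc2 (Pearson r = 0.787 on log2(CPM + 1)), Cyp2b10 (0.782) and Sorcs2 (0.779), out of 7270 genes compared. Classes share libraries and depth, and these correlations are descriptions.

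Pdgfb and Pdgfd, the ligands of the receptor that pericytes carry, were both highest in aerocyte capillaries, the capillary cells specialised for gas exchange. Pdgfb stood at 194 ± 48.2 CPM (SD, n = 12) there and at 143 ± 22.9 CPM (n = 12) in general capillaries, which did not differ beyond their spread. General capillaries were above venous endothelium (91.4 ± 25.1 CPM, n = 12) beyond it, while arterial endothelium (77.2 ± 41.0 CPM, n = 10) and alveolar type I cells (75.2 ± 24.6 CPM, n = 12) followed without a step of that size. Because alveolar type I nuclei held many UMIs, 36.4% of the 8206 Pdgfb UMIs lay in them, against 20.7% in general and 20.1% in aerocyte capillaries. The genes most like Pdgfb were Tspan13 (r = 0.870), Rasgef1a (0.825) and Stxbp6 (0.815).

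Pdgfd stood at 1314.5 ± 197.5 CPM (SD, n = 12) in aerocytes. Arterial endothelium (951 ± 243 CPM, n = 10), mesothelial cells (885 ± 482 CPM, n = 9) and general capillaries (721 ± 234 CPM, n = 12) came next, and none of these neighbours differed beyond its spread. Lymphatic endothelium, smooth muscle and venous endothelium held 508, 453 and 397 CPM, and the first step beyond the spread came below venous endothelium, to 125 CPM in peribronchial fibroblasts. Of the 28781 Pdgfd UMIs, 33.3% lay in aerocytes, 28.7% in general capillaries and 11.1% in fibroblasts. Sema6a (r = 0.896), Plpp1 (0.889) and Hecw2 (0.882) were most like it.

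Pdgfc stood at 412 ± 278 CPM (SD, n = 10) in interstitial macrophages or monocytes and at 410 ± 83.8 CPM (n = 12) in alveolar macrophages, with no difference beyond the spread. The first mean rests on the Bleo_vehicle libraries, at 616 to 934 CPM, while the other 7 lay between 20.5 and 464 CPM, and alveolar macrophages were the higher class in 6 of the 10 libraries that held both. Peribronchial fibroblasts, which lie around the airways, held 198 ± 88.2 CPM (n = 10), below alveolar macrophages beyond the spread, and fibroblasts 13.7 ± 29.4 CPM (n = 12). Alveolar macrophage nuclei held 60.0% of the 8898 Pdgfc UMIs, and interstitial macrophages or monocytes 18.9%. Cd302 (r = 0.837), Plekhm2 (0.825) and Bend6 (0.811) were most like it.

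Of the receptors, Pdgfra stood at 1003 ± 141 CPM (SD, n = 12) in fibroblasts and at 161 ± 86.6 CPM (n = 8) in the next class, T or NK cells, a step beyond the spread. The T or NK value rests on 186 UMIs in shallow nuclei (median depth 0.488 of the library median), without correction for free RNA. Fibroblast nuclei held 93.6% of the 44141 Pdgfra UMIs, from 82.9% to 98.6% by library, and were 21.5% of all nuclei. C7 (r = 0.968), Abca8a (0.961) and Amph (0.952) were most like it. Pdgfrb stood at 674 ± 271 CPM (n = 8) in pericytes, the mural cells of capillaries. Smooth muscle followed at 262 ± 150 CPM (n = 3), peribronchial fibroblasts at 112 ± 94.9 CPM (n = 10) and fibroblasts at 29.2 ± 36.8 CPM (n = 12), each below the one before beyond the spread. Pericytes held 43.3% of the 3247 Pdgfrb UMIs although they were 1.99% of nuclei, and fibroblasts held 30.2%. Vsnl1 (r = 0.946), Pde5a (0.913) and Des (0.907) were most like Pdgfrb.

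**Figure D2:**
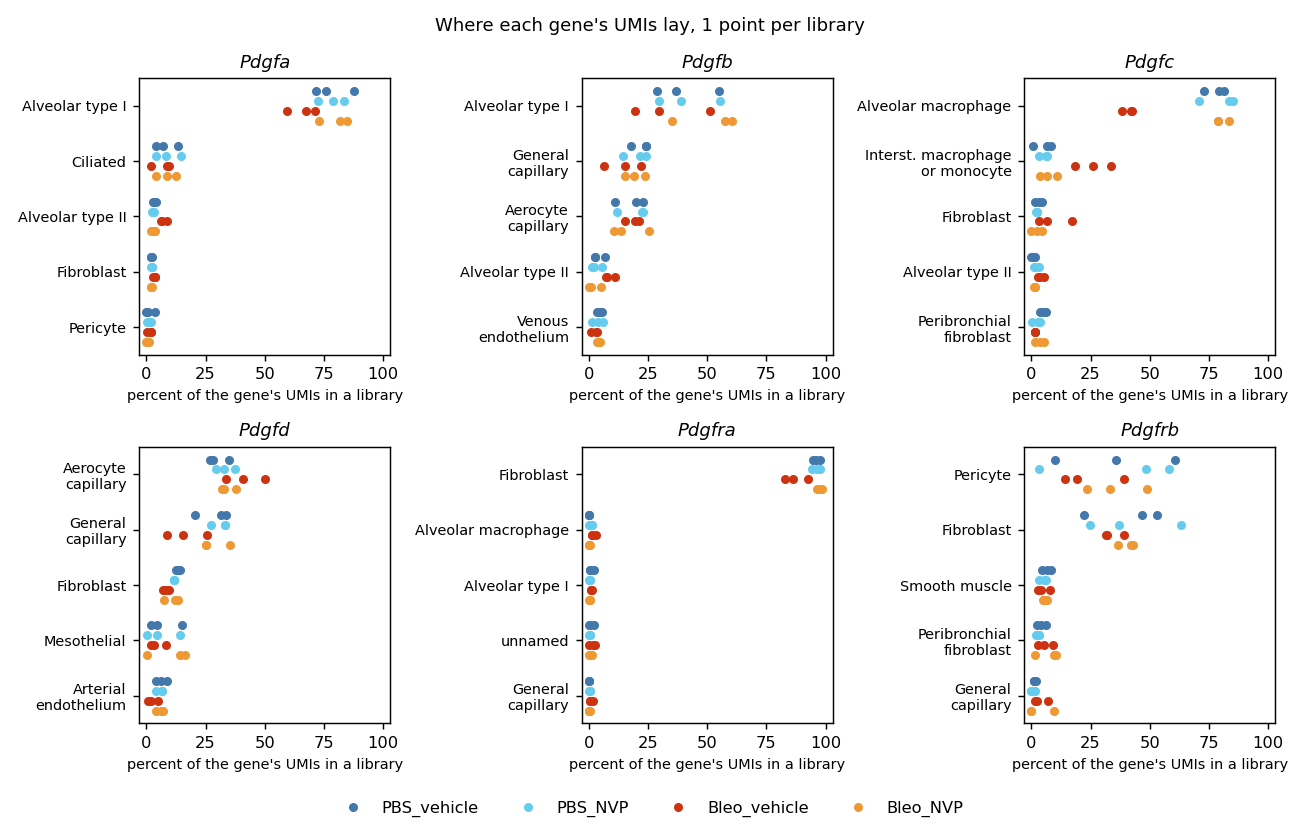
Percent of each gene's UMIs in a library (horizontal axis) that lay in the 5 classes with most of its UMIs (vertical axis), 1 point per library, coloured by group. The Pdgfc points of Bleo_vehicle lie apart, with 38.3% to 42.6% in alveolar macrophages and 18.5% to 33.8% in interstitial macrophages or monocytes.

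Fibroblasts were not uniform in these genes. Clustering of fibroblasts without the 6 genes gave 8 subclusters, of which subcluster 2 carried adventitial markers (6 of 9 over background) and subcluster 3 fibrotic markers (5 of 9), subclusters 0 and 1 stayed unnamed, and 4 small ones, led by genes of other cell classes, are left out of this description. Pdgfra averaged 532 ± 134 unscaled CPM (SD, n = 12 libraries) in adventitial fibroblasts, 1159 ± 185 (n = 11) in subcluster 0, 1004 ± 157 (n = 12) in subcluster 1 and 1360 ± 366 (n = 8) in fibrotic fibroblasts. Pdgfd was highest where Pdgfra was lowest, at 279 ± 77.3 unscaled CPM in adventitial fibroblasts and 22.5 to 29.2 in the other 3. Pdgfrb averaged 64.3 ± 30.6 in adventitial and 57.8 ± 42.4 in fibrotic fibroblasts and 7.95 ± 5.30 in subcluster 0. Subcluster 1, led by mitochondrial genes and with a median of 1458 UMIs per nucleus, averaged 28.0 ± 55.9 unscaled CPM of Pdgfrb, of which 1 Bleo_vehicle library gave 204.

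**Figure D3:**
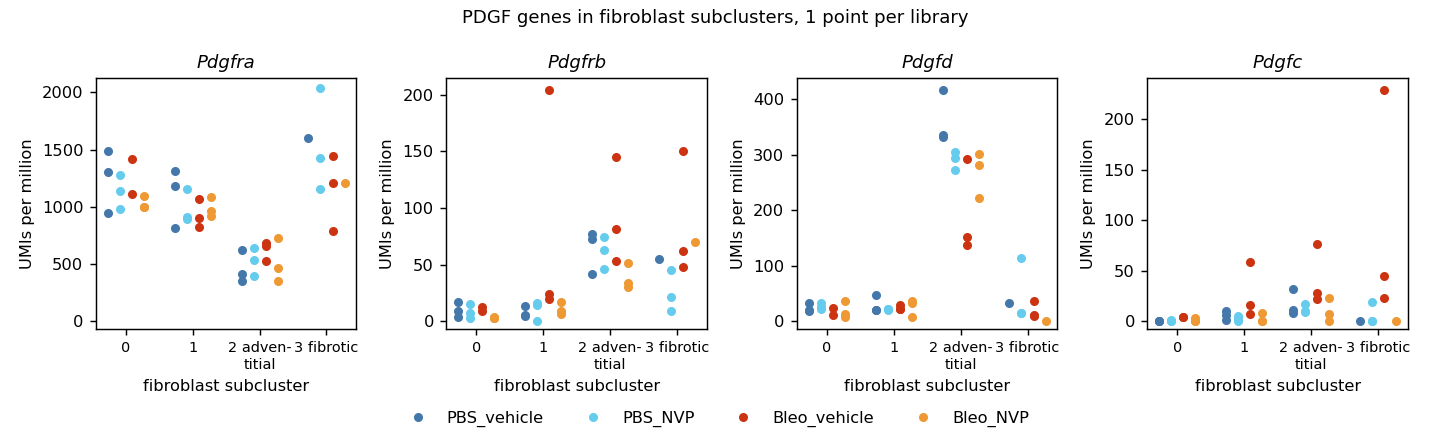
Unscaled CPM of 4 PDGF genes (vertical axes) in fibroblast subclusters 0 to 3 (horizontal axes), 1 point per library with at least 20 nuclei, coloured by group. Adventitial fibroblasts hold the least Pdgfra (354 to 725) and the most Pdgfd (137 to 417).

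Tests between groups asked whether bleomycin, the inhibitor or both moved these genes. UMIs were summed per library and class and tested with edgeR, and a test is called where the Benjamini-Hochberg adjusted p-value over all genes of that class is under 0.05. Each gene was tested in the sum over all nuclei, in fibroblasts, in alveolar macrophages, in interstitial macrophages or monocytes and in its 2 highest classes with enough nuclei in every group, and 24 pairs of gene and class passed the filter on low counts. In Bleo_vehicle against PBS_vehicle 1 of 24 pairs was called, where 3.24% of all 65335 gene and class tests in 10 classes were. In Bleo_NVP against Bleo_vehicle 3 of 24 were called, beside 4.77%, and for the interaction, the inhibitor's effect under bleomycin minus that under PBS, 1 of 24, beside 0.45%. In PBS_NVP against PBS_vehicle edgeR called 0 of 24 pairs (background 0%), with 1 at an unadjusted p under 0.05, and in Bleo_NVP against PBS_NVP it called 0 (background 0%), also with 1. DESeq2 called 0 in both of these, and 4, 4 and 1 in the first 3 comparisons. With so few pairs, these counts are not read as setting the 6 genes apart from the background.

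In the class where each gene was highest the groups did not separate in a called test. Pdgfra in fibroblasts stood at 1169, 1200 and 891 CPM in PBS_vehicle, 1071, 1102 and 902 CPM in PBS_NVP, 714, 916 and 1114 CPM in Bleo_vehicle and 961, 1075 and 927 CPM in Bleo_NVP. The groups overlapped, and the log2 change was -0.20 in Bleo_vehicle against PBS_vehicle (95% interval -0.60 to 0.20, edgeR adjusted p = 0.64) and 0.09 in Bleo_NVP against Bleo_vehicle (-0.31 to 0.48, adjusted p = 0.829). Pdgfb in aerocytes changed by 0.05 (-0.44 to 0.53) and Pdgfd in aerocytes by -0.08 (-0.49 to 0.33) on the log2 scale in Bleo_vehicle against PBS_vehicle, both at adjusted p = 0.998. Changes inside these intervals are compatible with the data at this depth and number of mice. The intervals are not limits of detection, since a call also needs the adjustment over all genes of the class. Pdgfrb in pericytes, fitted with libraries of at least 5 nuclei a limit chosen after seeing that only 1 Bleo_NVP library held 20, changed by 0.28 (-0.68 to 1.24, edgeR adjusted p = 0.999).

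Pdgfa in alveolar type I cells stood at 315, 241 and 262 CPM in PBS_vehicle and at 149, 208 and 203 CPM in Bleo_vehicle, with 365, 239 and 283 CPM in PBS_NVP and 268, 215 and 245 CPM in Bleo_NVP. All 3 Bleo_vehicle libraries were the lowest of the 12. The log2 change of -0.49 in Bleo_vehicle against PBS_vehicle (SE 0.17, interval -0.84 to -0.13) did not pass the threshold over all genes of the class (edgeR adjusted p = 0.118).

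**Figure D4:**
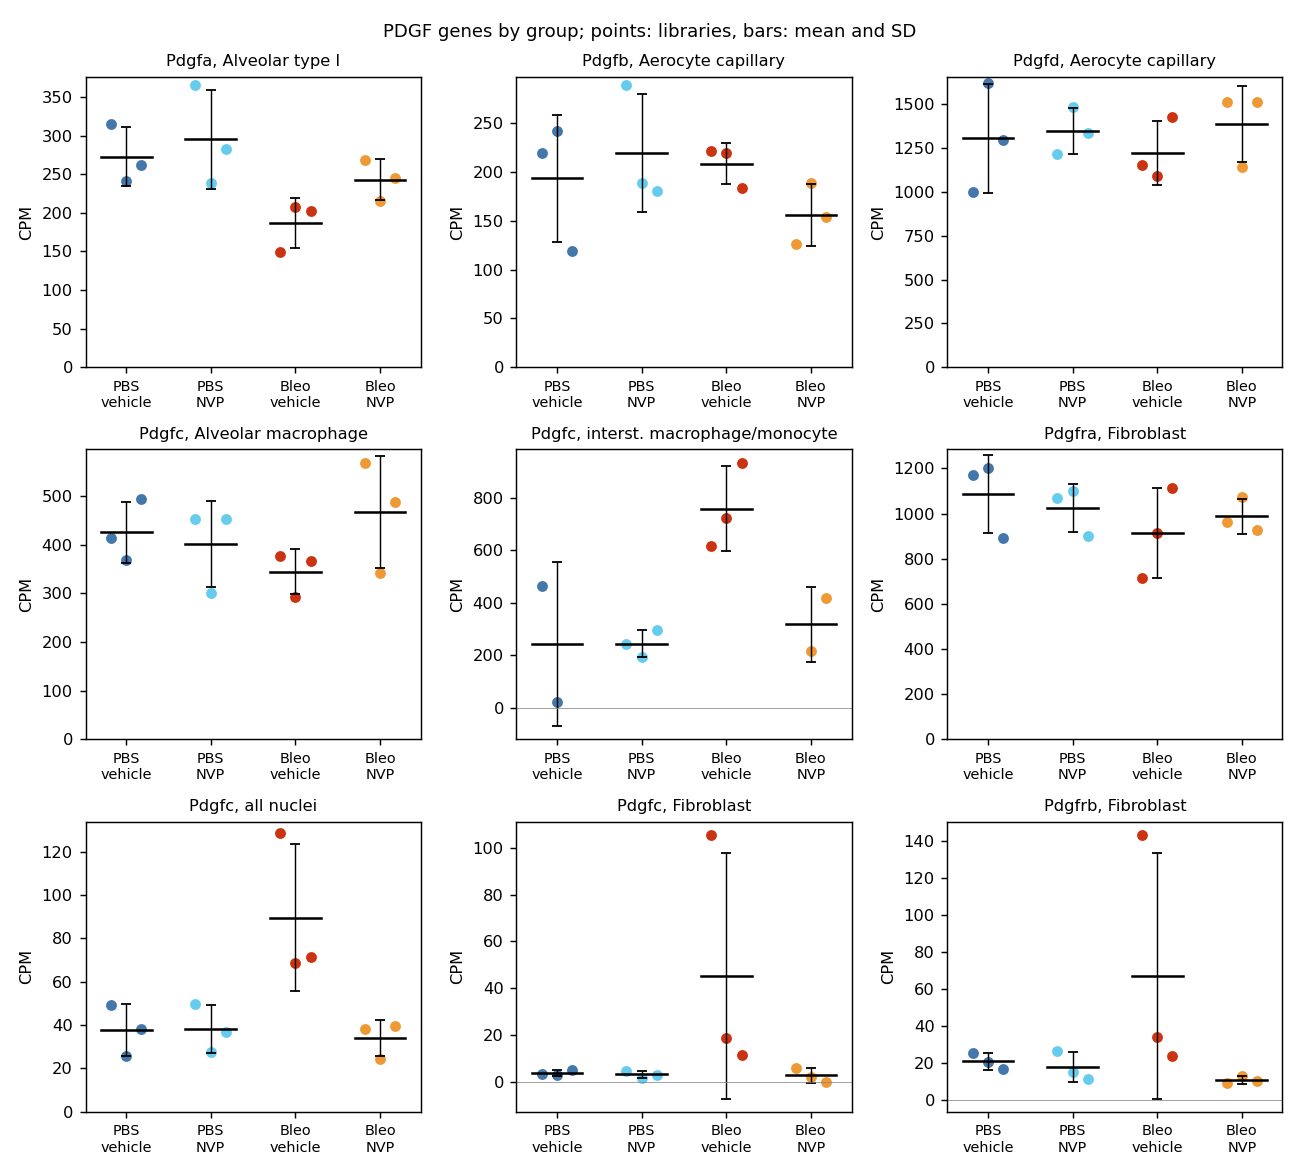
CPM (vertical axes) of Pdgfa, Pdgfb, Pdgfc, Pdgfd and Pdgfra in their highest classes and of the pairs called in Bleo_NVP against Bleo_vehicle, by group (horizontal axes). Pdgfra in alveolar macrophages and Pdgfrb in pericytes are not drawn. Points are libraries, the long bar is the group mean and the error bar the SD, and in the bottom row Bleo_vehicle replicate 1 stands highest, at 128.7 CPM for Pdgfc over all nuclei and at 105.7 CPM for Pdgfc and 143.6 CPM for Pdgfrb in fibroblasts.

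Among the ligands, Pdgfc was called between the bleomycin groups in 2 of the 24 pairs, over all nuclei and in fibroblasts. Over all nuclei it stood at 128.7, 68.6 and 71.3 CPM in Bleo_vehicle and at 38.1, 24.4 and 39.7 CPM in Bleo_NVP, with 49.5, 25.6 and 38.3 CPM in PBS_vehicle and 49.7, 27.5 and 37.0 CPM in PBS_NVP. Every Bleo_vehicle library was above the other 9. Pdgfc fell by 1.38 on the log2 scale from Bleo_vehicle to Bleo_NVP (SE 0.33, edgeR adjusted p = 0.0329), where 5.51% of genes were called over all nuclei. The change of 1.25 from PBS_vehicle to Bleo_vehicle (SE 0.32) did not pass (adjusted p = 0.0591, with 2.44% of genes called). Without Bleo_vehicle replicate 1 the Bleo_NVP change was -1.01 and was not called (adjusted p = 0.0888), nor was it without any 1 Bleo_NVP library (-1.50 to -1.17, adjusted p from 0.0982 to 0.102).

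In a sum over all nuclei, more cells of a type and more RNA per cell cannot be told apart. Alveolar macrophages held most Pdgfc UMIs over all libraries together, but not within the Bleo_vehicle libraries. They were 19.3%, 10.5% and 8.87% of nuclei in Bleo_vehicle, 8.26%, 5.11% and 7.04% in PBS_vehicle and 6.16%, 6.23% and 7.67% in Bleo_NVP. Interstitial macrophages or monocytes were 5.60%, 3.07% and 3.79% in Bleo_vehicle and between 0.85% and 2.56% in the other 9 libraries. Within alveolar macrophages Pdgfc stood at 377, 292 and 366 CPM in Bleo_vehicle and at 414, 368 and 493 CPM in PBS_vehicle, a log2 change of -0.25 (interval -0.70 to 0.20) that was not called. Within interstitial macrophages or monocytes it stood at 616, 723 and 934 CPM in Bleo_vehicle, at 464 and 20.5 CPM in PBS_vehicle, at 242, 192 and 297 CPM in PBS_NVP and at 216 and 417 CPM in Bleo_NVP. Bleo_vehicle was above the other groups there, yet the change against PBS_vehicle (log2 1.26, interval 0.08 to 2.44) was not called (edgeR adjusted p = 0.3), and the library at 20.5 CPM rests on 1 Pdgfc UMI.

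In fibroblasts Pdgfc was low outside Bleo_vehicle. It stood at 105.7, 18.5 and 11.5 CPM in Bleo_vehicle (92, 59 and 104 UMIs), at 6.02, 1.95 and 0 CPM in Bleo_NVP (6, 4 and 0 UMIs) and at 3.09, 2.95 and 5.08 CPM in PBS_vehicle. The 3 Bleo_vehicle libraries were above the others, and replicate 1 was far above its own group. That replicate had the lowest median depth of the series (925 UMIs per barcode). The mitochondrial filter removed 843 of its 3125 barcodes. Pdgfc fell by 4.23 on the log2 scale from Bleo_vehicle to Bleo_NVP (SE 1.06, edgeR adjusted p = 0.0361), where 7.21% of fibroblast genes were called, while the change of 3.63 from PBS_vehicle to Bleo_vehicle (SE 0.93, adjusted p = 0.0538) was not called, beside 3.93% of genes. Markers of interstitial macrophages or monocytes moved with it. Their summed level in fibroblast nuclei was 75.9, 29.8 and 23.7 unscaled CPM in Bleo_vehicle, with 10 of 10 markers detected, and 2.33 to 7.85 in the other libraries, where C1qa, C1qc, Ms4a7 and Fcgr4 were at 0 in Bleo_NVP. In the Bleo_vehicle libraries that list reached 4.38%, 2.01% and 1.37% of its level in its own class, and Pdgfc reached 22.9%, 3.16% and 1.49% of its level there. The make-up of the class moved too. Fibrotic fibroblasts were 25.4%, 9.35% and 7.42% of fibroblasts in Bleo_vehicle and 3.99% to 6.29% elsewhere, and they held 64 of the 92 fibroblast Pdgfc UMIs of Bleo_vehicle replicate 1 (229 unscaled CPM). The part of the markers and of the make-up in the Pdgfc result was not tested. Alveolar macrophage markers in the same fibroblasts overlapped between groups, at 89.9 to 106 unscaled CPM in Bleo_vehicle and 55.5 to 154 elsewhere. Without the 4 subclusters led by genes of other classes the change was -4.29 (adjusted p = 0.0662). The call was also lost without PBS_vehicle replicate 2, PBS_NVP replicate 3 or any 1 Bleo_NVP library (edgeR adjusted p from 0.0501 to 0.124), and without Harmony the change was -1.97 (0.126). Comparing only these groups (edgeR adjusted p = 0.0789), stricter nuclei (0.079) and no filter on low counts (0.0918) ended it too. It held in 11 of 21 alternatives.

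Pdgfrb in fibroblasts had a like pattern. It stood at 143.6, 34.2 and 23.6 CPM in Bleo_vehicle, at 9.04, 13.2 and 10.4 CPM in Bleo_NVP, at 25.6, 20.7 and 16.5 CPM in PBS_vehicle and at 26.7, 14.9 and 11.5 CPM in PBS_NVP. Bleo_vehicle and Bleo_NVP did not overlap, but Bleo_vehicle replicate 3 lay within the range of the PBS libraries and replicate 2 just above it. Pdgfrb fell by 2.53 on the log2 scale from Bleo_vehicle to Bleo_NVP (SE 0.68, edgeR adjusted p = 0.0455), and its change of 1.62 from PBS_vehicle to Bleo_vehicle was not called (SE 0.61, adjusted p = 0.181). The call was lost when any 1 library of PBS_vehicle, PBS_NVP or Bleo_NVP (9 in all) was left out, at adjusted p-values up to 0.15 and log2 changes from -2.998 to -1.33 over all 12. Comparing only these groups (edgeR adjusted p = 0.0827), stricter nuclei (0.0718) and no filter on low counts (0.115) ended it too. So did leaving out the subclusters led by genes of other classes (0.0665). It held in 7 of 21 alternatives. Pericyte markers summed to 105, 108 and 124 unscaled CPM in the fibroblasts of Bleo_vehicle and to 86.0 to 109 elsewhere, which was 1.76%, 2.29% and 1.21% of their level in pericytes in Bleo_vehicle. Pdgfrb reached 11.5%, 9.48% and 5.40% of its pericyte level in the same nuclei. Subcluster 0, the lowest in Pdgfrb, was 3.99%, 22.8% and 38.4% of fibroblasts in Bleo_vehicle and 41.7% to 50.9% elsewhere, beside the larger share of fibrotic fibroblasts given above. The part of this make-up in the Pdgfrb result was not tested.

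The test called between Bleo_vehicle and PBS_vehicle was Pdgfra in alveolar macrophages, a class where it was low. It stood at 38.1, 41.8 and 31.7 CPM in Bleo_vehicle (23, 49 and 123 UMIs) and at 7.39, 2.56 and 14.6 CPM in PBS_vehicle (17, 1 and 4 UMIs), without overlap. The log2 change was 2.33 (SE 0.63, edgeR adjusted p = 0.0317), and it was not called without replicate 1 or 2 of either group (2.08 to 2.28, adjusted p from 0.0557 to 0.183). PBS_NVP libraries were spread over 34.5, 84.6 and 7.45 CPM, and Bleo_NVP libraries held 5.17, 10.5 and 17.7 CPM. The interaction was -4.12 (SE 0.93, edgeR adjusted p = 0.0315), and PBS_NVP against PBS_vehicle, at 2.47 with an unadjusted p of 0.00129, was not called over the genes of the class. Fibroblast markers moved with Pdgfra in these nuclei. Their sum was 204, 208 and 153 unscaled CPM in Bleo_vehicle, 151, 331 and 127 in PBS_NVP and 35.6 to 125 in the other 6 libraries, with 9 of 9 markers detected in every group but Bleo_NVP (8 of 9, Dcn at 0). In Bleo_vehicle that was 7.62%, 10.3% and 5.60% of their level in fibroblasts, and Pdgfra in these macrophages was 4.55%, 4.33% and 2.78% of its own fibroblast level. The part of fibroblast RNA in this result was not tested.

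**Figure D5:**
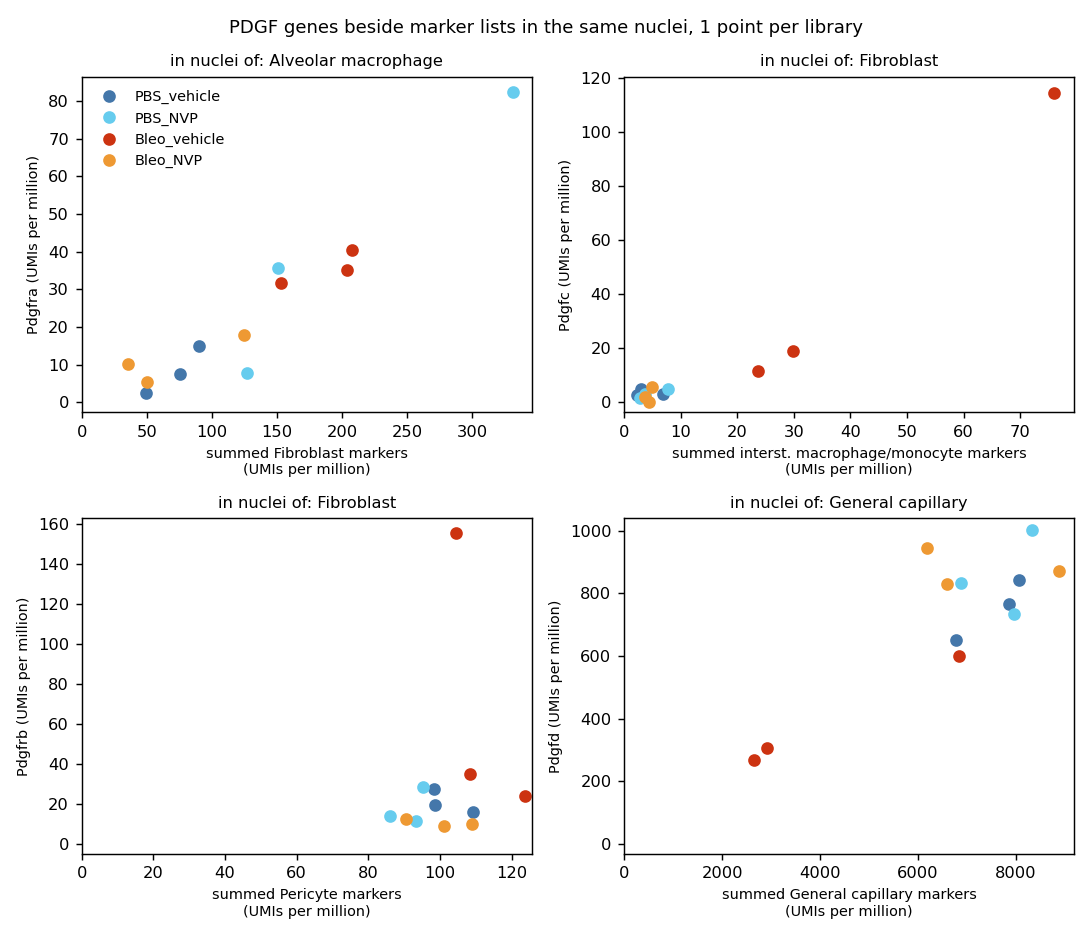
Level of a PDGF gene (vertical axes) against the summed level of a marker list (horizontal axes) in the same nuclei, both in unscaled CPM, 1 point per library, coloured by group. Pdgfra in alveolar macrophages runs with fibroblast markers, Pdgfc in fibroblasts with interstitial macrophage or monocyte markers and Pdgfd in general capillaries with that class's own markers, while Pdgfrb in fibroblasts reaches 156 in a library whose pericyte markers (105) lie within the range of the others.

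Other pairs in fibroblasts and over all nuclei were not called. Pdgfb in fibroblasts, at 6.89, 8.78 and 4.66 CPM in Bleo_vehicle and 1.00, 1.95 and 1.30 CPM in Bleo_NVP, did not overlap between these groups, and its log2 change of -2.12 (SE 0.62) lay at an edgeR adjusted p of 0.0519. It rests on 6, 28 and 42 UMIs against 1, 4 and 2, and general capillary markers in these nuclei summed to 118 to 148 unscaled CPM in Bleo_vehicle and 53.4 to 96.2 in Bleo_NVP. Pdgfa in fibroblasts changed by -0.84 (SE 0.35, adjusted p = 0.168). Over all nuclei Pdgfrb changed by -2.21 (SE 0.69, adjusted p = 0.0757) and Pdgfra by 0.43 (SE 0.17, adjusted p = 0.147) in the same comparison, so the receptors pointed in opposite directions without either being called.

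Tests of the 6 genes in classes fitted for another of them added 5 called tests, which are named here after their values were seen. With them 3 of 34 tests were called in Bleo_vehicle against PBS_vehicle and 6 of 34 in Bleo_NVP against Bleo_vehicle, beside the 3.24% and 4.77% of all gene and class tests given above. Pdgfd, a ligand of endothelium, stood at 254, 316 and 634 CPM in the general capillaries of Bleo_vehicle and at 888, 917.5 and 806 CPM in Bleo_NVP, with 851, 786 and 638 CPM in PBS_vehicle. It rose by 1.04 on the log2 scale from Bleo_vehicle to Bleo_NVP (SE 0.24, edgeR adjusted p = 0.018), and Bleo_vehicle replicate 3 lay beside the lowest PBS_vehicle library. It was not called without Bleo_vehicle replicate 2 (0.88, adjusted p = 0.119) or any 1 Bleo_NVP library (adjusted p from 0.052 to 0.0838). General capillary markers themselves summed to 2643, 2920 and 6839 unscaled CPM in those Bleo_vehicle nuclei and to 6185 to 8880 elsewhere, and venous endothelium markers to 447 to 550 in Bleo_vehicle and 73.3 to 231 elsewhere. Alveolar type II markers there summed to 517, 3107 and 2980 in Bleo_vehicle and to 225 to 597 elsewhere. Markers of aerocytes, the class highest in Pdgfd, were not lower in Bleo_vehicle, at 63.2 to 314 against 25.2 to 118 elsewhere, with overlap. The part of the make-up of this class in the Pdgfd result was not tested. In ciliated cells Pdgfd stood at 103.9, 120.2 and 61.8 CPM in Bleo_vehicle and at 6.60, 13.1 and 36.0 CPM in Bleo_NVP, a fall by 2.46 (SE 0.57, edgeR adjusted p = 0.0222) that was not called without Bleo_vehicle replicate 2 or Bleo_NVP replicate 1 or 2 (adjusted p from 0.0945 to 0.209). General capillary markers there summed to 223 to 776 unscaled CPM in Bleo_vehicle and to 78.9 to 277 elsewhere, and smooth muscle markers to 30.6 to 62.0 in Bleo_vehicle and to 0 to 25.2 elsewhere. Markers of aerocytes, the class highest in Pdgfd, overlapped, at 25.5 to 147 in Bleo_vehicle and 0 to 64.1 elsewhere. The part of these lists in the Pdgfd result of ciliated cells was not tested.

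Pdgfc in alveolar type I cells rose from 4 UMIs in PBS_vehicle to 120 in Bleo_vehicle and was at 1 UMI in Bleo_NVP. Over the summed libraries its levels were 0.476, 7.49 and 0.217 unscaled CPM. The ratio of Bleo_vehicle to PBS_vehicle was 15.7 (95% exact interval 5.99 to 58.7) and that of Bleo_vehicle to Bleo_NVP 34.4 (6.06 to 1371), intervals that cover counting error only. Both were called by edgeR (adjusted p = 0.00983 and 0.0131), the second not without any 1 Bleo_NVP library (adjusted p from 0.0657 to 0.0718). Pdgfc in these nuclei was 0.91% to 1.52% of its level in interstitial macrophages or monocytes in Bleo_vehicle, and that class's markers were 0.90% to 1.16% of theirs. Alveolar macrophage markers in alveolar type I nuclei also stood apart, at 39.6 to 55.1 unscaled CPM in Bleo_vehicle and 6.77 to 27.6 elsewhere. The part of either list in the Pdgfc result was not tested. In general capillaries Pdgfra stood at 24.7, 63.9 and 23.5 CPM in Bleo_vehicle and at 9.49, 7.00 and 17.0 CPM in PBS_vehicle, a rise by 2.06 (SE 0.57, edgeR adjusted p = 0.0451), beside fibroblast markers at 189 to 395 unscaled CPM in Bleo_vehicle and 72.2 to 188 elsewhere. That call was lost for 7 of the 12 libraries left out, PBS_vehicle replicates 1, 2 and 3, PBS_NVP replicate 2, Bleo_NVP replicate 2 and Bleo_vehicle replicates 1 and 2, the last of which left a change of 1.31 (adjusted p = 0.615).

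Other genes of the pathway were read from 4 lists in fibroblasts and over all nuclei. From Bleo_vehicle to Bleo_NVP 7.21% of all fibroblast genes (255 rose and 500 fell) and 5.51% of genes over all nuclei were called, and the counts of the lists stand beside those shares without being set apart from them. Of the genes that process or bind the ligands, 9 of 12 were tested in fibroblasts. From Bleo_vehicle to Bleo_NVP 1 fell, Lrp1, a scavenger receptor that binds PDGF receptor complexes (log2 change -1.13, SE 0.27, edgeR adjusted p = 0.0271), and the median over the list was -0.36, beside -0.05 over all fibroblast genes. Over all nuclei Lrp1 (-1.40) and Furin (-1.28), a protease of secreted proteins, fell among 11 tested. Of 23 receptor-bound adaptors and effectors in fibroblasts, Fyn (0.93), a Src family kinase, and Pik3ca (0.61), a catalytic subunit of PI3-kinase, rose and Plcg2 (-2.57), a phospholipase typical of blood cells, fell. The median over that list was 0.01.

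In Bleo_vehicle against PBS_vehicle none of the 9 ligand-processing genes was called in fibroblasts, and the most abundant of them, Pcsk5, a proprotein convertase, changed by 1.09 (SE 0.39, edgeR adjusted p = 0.146).

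From Bleo_vehicle to Bleo_NVP 1 of 19 downstream kinases and early targets tested in fibroblasts fell, Ccnd1 (-2.63), a cyclin of the G1 phase. In the same comparison, of 17 negative regulators Ptprj (-2.41), a receptor phosphatase, and Inpp5d (-4.10), a lipid phosphatase of blood cells, fell. From PBS_vehicle to Bleo_vehicle 1 of 23 adaptors rose in fibroblasts, Plcg2 (2.86, edgeR adjusted p = 0.0165), and 1 of 17 negative regulators, Ptprj (2.27, adjusted p = 0.0213), where 310 of 10471 fibroblast genes rose. Over all nuclei 1 of 23 adaptors rose, Vav2 (0.63), beside 2.44% of genes called. Vav2 (-0.72) and Plcg2 (-1.04) fell over all nuclei from Bleo_vehicle to Bleo_NVP. Markers of interstitial macrophages or monocytes in the fibroblast nuclei of Bleo_vehicle, given above beside Pdgfc, moved with Plcg2 and Inpp5d too, and their part was not tested.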

How the data were processed

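The authors sorted nuclei from frozen lungs by DAPI, made 10x 3′ libraries, aligned reads to mm10 with Cell Ranger (7.2.0 in the file headers, 7.0 in the submitters' notes, which also name Seurat 4.4.1) and deposited whole-number counts (UMIs per gene and nucleus) without normalization. Here nuclei with 200 to 6000 genes and at most 5% mitochondrial UMIs were kept (47319), and 2708 predicted doublets (5.72%, scrublet score in scanpy 1.11.5) were removed. The study's DecontX correction for free RNA was not run. Nuclei were clustered on 30 principal components of 2000 genes, corrected for library by the Harmony algorithm, at Leiden resolution 1, and clusters were named from at least 3 markers. A cluster of 827 nuclei stayed unnamed, for low UMIs and no marker among its leading genes. Of these nuclei 44.0% came from PBS_vehicle replicate 2, where they were 15.0% of nuclei. Counts summed per library and class (at least 20 nuclei) were tested in 1 fit of the 4 groups with edgeR 4.0.16 (TMM, filterByExpr, robust quasi-likelihood, two-sided) in R 4.3.3, tested on simulated data first. DESeq2 1.42.0 was an alternative. Intervals cover 95%. Pathway genes were named if called, at most 5 a list and comparison, otherwise the list's most abundant gene. One result of these lists is not reported here. Genes compared for likeness reached 50 CPM in a class. The 6 genes and all lists were chosen with earlier results of these data known. Replicate numbers paired PBS_vehicle with PBS_NVP (correlations of same-numbered deviations from 0.392 to 0.740), and the block changed no count there. Gene positions are from GENCODE M21. Depths are given in the report.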

Additional observations from a re-analysis of the deposited data

Results flagged for a closer look

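The change from vehicle to NVP-BHG712 in Pdgfra of alveolar macrophages was set apart because it differed between bleomycin and PBS mice. A test of that difference gave an interaction of -4.12 on the log2 scale (edgeR adjusted p = 0.0315). Bleo_NVP libraries carry run number 4 and Bleo_vehicle libraries batch numbers 6, 6 and 7, so inhibitor and batch cannot be told apart there. Pdgfra was higher in 2 of 3 PBS_NVP libraries than in all PBS_vehicle libraries and lower in 3 of 3 Bleo_NVP libraries than in all Bleo_vehicle libraries. Fibroblast markers in the same nuclei were higher in all 3 PBS_NVP libraries (127 to 331 unscaled CPM) than in PBS_vehicle (49.5 to 90.5). They were higher in Bleo_vehicle (153 to 208) than in Bleo_NVP (35.6 to 125). Their part in the Pdgfra result was not tested. Leaving out 1 library moved the interaction between -4.55 and -3.37 and ended the call for 8 of the 12 libraries, replicates 1, 2 and 3 of PBS_vehicle and of Bleo_NVP and replicate 2 of PBS_NVP and of Bleo_vehicle (edgeR adjusted p from 0.0503 to 0.115).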

How the results depend on the processing

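The number of called pairs changed with the processing, and so did the number tested, which was 24 in the values reported, 32 without the filter on low counts, 20 with stricter nuclei, 23 without Harmony or without some fibroblast subclusters, 25 with doublets kept, 18 to 25 with only the groups compared and 21 to 28 with 1 library left out. For Bleo_vehicle against PBS_vehicle (1) it was 4 with DESeq2, 4 without the filter on low counts, 4 with the replicate block, 2 with only the groups compared, 3 with predicted doublets kept, and 0 with stricter filters on nuclei and 0 without Harmony. For Bleo_NVP against Bleo_vehicle (3) it was 6 without the filter, 6 with the replicate block, 0 with only the groups compared, and 1 with stricter nuclei, 1 without Harmony and 1 without the fibroblast subclusters led by genes of other classes. For PBS_NVP against PBS_vehicle (0) it was 1 without the filter, and for the interaction (1) it was 2 with the replicate block and 0 without Harmony. Leaving out 1 library gave 0 to 6 calls in the first comparison, 0 to 6 in the second, where each Bleo_NVP library left out gave 0, and 0 to 1 for the interaction. Bleo_vehicle and Bleo_NVP share only replicate numbers with the other groups. The alternative without those fibroblast subclusters was chosen after seeing the data. The causes were not tested.

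Among the called pairs, Pdgfc in fibroblasts changed by -1.97 from Bleo_vehicle to Bleo_NVP without Harmony (edgeR adjusted p = 0.126), and over single libraries left out by -5.26 to -2.66. Pdgfrb there changed by -1.14 without Harmony (adjusted p = 0.113). Calls outside the 24 pairs were also lost for Pdgfra in general capillaries without Bleo_vehicle replicate 2 (1.31, adjusted p = 0.615).

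Directions that turned belonged to uncalled log2 changes. With stricter nuclei Pdgfb in aerocytes was at -0.015 and Pdgfd in aerocytes at 0.019 (Bleo_vehicle against PBS_vehicle), and Pdgfrb in pericytes at -0.67 in that comparison, 0.57 in Bleo_NVP against Bleo_vehicle and 0.54 for the interaction. Without Harmony Pdgfra in fibroblasts was at -0.044 (Bleo_NVP against Bleo_vehicle), and against PBS_NVP it was at 0.0030 with DESeq2, 0.0030 with its size factors and 0.014 with doublets kept. With the replicate block Pdgfrb in peribronchial fibroblasts was at 0.69 and in pericytes at 0.13 (Bleo_NVP against PBS_NVP). In PBS_NVP against PBS_vehicle Pdgfrb in peribronchial fibroblasts was at 0.037 without the filter, Pdgfc over all nuclei at 0.0092 without it, 0.0056 with the replicate block and 0.017 with doublets kept, Pdgfc in fibroblasts at 0.062 without the mixed subclusters, and Pdgfrb in pericytes at -0.046 with DESeq2, -0.078 with the block, -0.035 with doublets kept and -0.10 without Harmony.

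Leaving out 1 library also turned uncalled log2 changes, with these ranges. For PBS_NVP against PBS_vehicle they ran from -0.070 to 0.22 for Pdgfa in alveolar type I cells, from -0.11 to 0.29 for Pdgfb in aerocytes, from -0.89 to 3.45 for Pdgfc in interstitial macrophages or monocytes, from -0.14 to 0.21 for Pdgfd in aerocytes, from -1.48 to 0.38 for Pdgfrb in peribronchial fibroblasts, from -0.23 to 0.23 for Pdgfc in all nuclei, from -0.63 to 0.19 for Pdgfc in fibroblasts and from -0.55 to 0.22 for Pdgfrb in pericytes. For Bleo_vehicle against PBS_vehicle they ran from -0.13 to 0.18 for Pdgfb in aerocytes, from -0.26 to 0.090 for Pdgfd in aerocytes and from -0.51 to 0.65 for Pdgfrb in pericytes. For Bleo_NVP against PBS_NVP they ran from -0.090 to 0.84 for Pdgfc in interstitial macrophages or monocytes, from -0.032 to 0.19 for Pdgfd in aerocytes, from -0.084 to 0.036 for Pdgfra in fibroblasts, from -1.90 to 0.86 for Pdgfrb in peribronchial fibroblasts, from -0.31 to 0.11 for Pdgfc in all nuclei, from -1.57 to 0.089 for Pdgfc in fibroblasts, from -0.044 to 0.23 for Pdgfd in general capillaries and from -0.32 to 0.37 for Pdgfrb in pericytes. For the interaction they ran from -0.030 to 0.32 for Pdgfd in aerocytes and from -0.82 to 0.33 for Pdgfrb in pericytes. For Bleo_NVP against Bleo_vehicle they ran from -0.0051 to 0.23 for Pdgfra in fibroblasts and from -0.83 to 0.32 for Pdgfrb in pericytes.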
